A study of Mus musculus with 4 samples.

Results

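Zfp genes are mouse genes named for a zinc finger protein and a number, and 157 of them that gave a clear array signal in mouse embryonic stem (ES) cells are described here. They were found among probe sets whose platform annotation gave exactly 1 gene symbol made of Zfp and digits only. Zfp42, Zfp57, Zfp281 and Zfp36 were left out, and the brightest probe set by mean log2 over the 4 arrays stood for each gene. Of 301 such genes, the 157 with a mean log2 signal of 8 or more (a signal of 256) are the members, and 144 lay below that level. The members were thus selected on their measured signal, and their level is not a finding. The contrast with and without LIF was not part of the choice, but the gene family was picked with earlier results of these data known.

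The study asked which genes depend on signalling by leukemia inhibitory factor (LIF), a cytokine that keeps mouse ES cells undifferentiated. All cells were CGR8, an established ES cell line for which the labels name no genetic change, grown on gelatin with serum replacement. A pair of arrays held RNA of cells kept with LIF at 1000 U/ml and another pair held RNA of cells moved to medium without LIF, both taken after 2 days. The labels number the arrays of each group 1 and 2 and do not say that they came from separate cultures, so the p-values rest on how far these arrays lie apart, which may be a technical spread. Signals are given in the order array 1, array 2.

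Most Zfp proteins carry tandem C2H2 zinc fingers, short loops held by a zinc ion that read DNA bases. The largest subgroup joins its fingers to a KRAB domain, which recruits the corepressor Trim28 and through it the histone methyltransferase Setdb1, so that retroviral elements and imprinted regions stay silent in ES cells. Others are transcription activators, cofactors of chromatin enzymes, or proteins of RNA, ribosome and ubiquitin pathways that share only the zinc finger fold and the name.

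The treatment showed in known LIF targets. Socs3, the feedback inhibitor of LIF signalling, read 4827 and 6198 with LIF against 360 and 261 without LIF (log2 change -4.16, SE 0.24, limma adjusted p = 0.0046). As a check of the cell type, all 12 fixed ES cell markers were above the low-signal filter, and their summed signal was 126254 and 147793 with LIF against 81619 and 112042 without LIF. Of 10 fibroblast markers 9 were above it, with a summed signal of 1313 and 775 with LIF against 1902 and 1144 without LIF. For 11 primitive endoderm markers the sum was 6974 and 16848 with LIF against 8518 and 28409 without LIF, higher on the arrays numbered 2 in each group. The sum of 7 neuroectoderm markers was 2546 and 1639 with LIF against 3663 and 2846 without LIF. The fibroblast and neuroectoderm sums were higher on the arrays numbered 1 in each group. Every list held a marker that read the other way than its sum. The furthest were Lin28a (log2 change 0.87), the fibroblast marker Postn (-0.09), the primitive endoderm marker Lama1 (-0.37) and the neuroectoderm marker Tubb3 (-0.91). The part of these other cell types in the Zfp values was not tested. In bulk RNA of this kind, fewer cells with a transcript and less of it per cell cannot be told apart.

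In limma, 0 of the 157 members reached an adjusted p of 0.05, where 0.145% of all 14445 genes tested and 0.198% of those with a mean log2 signal of 8 or more did, and 13 members (8.28%) had an unadjusted p of 0.05 or less against 10.9% of all genes tested and 11.6% of the 8099 genes at 8 or more. Most members had small changes. The median log2 change of the members, without LIF minus with LIF, was 0.06, beside 0.09 for all genes tested and 0.01 for genes at 8 or more. The central 50% of members lay between -0.15 and 0.25, and the changes had an SD of 0.33 against 0.44 for genes at 8 or more. Extremes were -1.27 and 0.92, where genes at 8 or more reached -4.16 and 3.61. Zfp42, left out by name, had a change of -1.38 (limma adjusted p = 0.084), so these extremes hold for the members only. Of the members 93 (59.2%) had a change under 0.25 in either direction, as had 60.2% of genes at 8 or more. At 0.5 or more in either direction lay 19 (12.1%), against 30.8% of all genes tested and 15.8% of genes at 8 or more. With 2 arrays a group this spread does not show that the other members were equal between the groups.

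**Figure D1:**
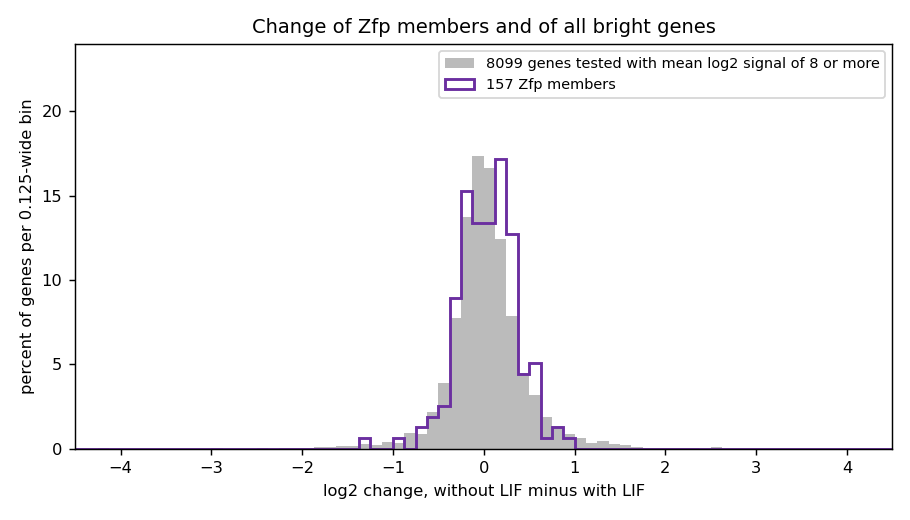
Percent of genes (vertical axis) by log2 change without LIF minus with LIF (horizontal axis, bins of equal width) for the 157 Zfp members (purple outline) and the 8099 genes tested with a mean log2 signal of 8 or more (grey bars). The members lie between -1.27 and 0.92, and their median of 0.06 is close to the 0.01 of the grey bars, whose tails run further out.

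On each array the members spanned a wide range of signal. With LIF the lowest, median and highest member read 198, 642 and 8244 on array 1 and 175, 589 and 9623 on array 2, and without LIF 170.3, 639 and 7749 on array 1 and 167, 603 and 9072 on array 2. The 4 medians lay close together in both groups. By level, 64 members lay between 8 and 9 in mean log2 signal, 43 between 9 and 10, 34 between 10 and 11 and 16 above 11. Probe sets differ in how brightly they read a transcript, so these signals do not rank the genes by transcript number.

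Scaling bears on small changes. When every array was given a common median, the median change of all genes shifted by -0.29, and the members then read 25 higher and 132 lower in place of 87 higher and 70 lower. Genes at 8 or more moved likewise, to 1548 higher and 6551 lower in place of 4145 and 3954. All genes tested moved to 4847 higher and 9598 lower in place of 8578 and 5867, so the shift was not particular to the members. The sign of such small changes depended on the scaling, and 62 of the 157 members turned direction with it. None of the 20 members with the smallest p and with groups of arrays that did not overlap turned direction with a common median. The same held with quantile normalization and with any 1 array left out. The choice of these 20 makes this certain for single arrays, since their groups do not overlap. It is also certain for the common median, whose shift of -0.29 is smaller in size than their smallest rise, 0.36. Nothing is read from these 2 outcomes. For 56 members (35.7%) both arrays of a group lay outside the range of the other group, 34 of them higher and 22 lower without LIF, against 42.5% of all genes tested and 41.7% of genes at 8 or more. By direction the background was 27.3% higher and 15.2% lower of all genes tested, and 21.5% higher and 20.2% lower of genes at 8 or more, beside 21.7% and 14% of members.

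Zfp296, a factor of the pluripotency network that is known to work beside Klf4 and to aid reprogramming, was the member with the lowest value without LIF relative to LIF. It read 2062.5 and 1377 with LIF against 573 and 849 without LIF. Both arrays without LIF lay below both with LIF, and it was the only member whose arrays were apart by a mean of at least 1 on the log2 scale (0.637% of members, against 2.12% of all genes tested and 1.64% of genes at 8 or more in that direction). The mean signal was 1720 ± 485 with LIF and 711 ± 195 without LIF (SD, n = 2), a log2 change of -1.27 (2.42-fold lower, SE 0.29) that did not pass (limma adjusted p = 0.16). Within the arrays numbered 1 the change was -1.85 and within those numbered 2 it was -0.70. Dropping array 2 of the cells without LIF gave Zfp296 a change of -1.56 that passed (limma adjusted p = 0.0094), and over the alternatives without the replicate number in the fit its adjusted p ranged from 0.0094 to 0.44. Its single probe set leaves no second reading on these arrays.

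Zfp59 had the smallest p of all members, with close agreement inside each group. Signals were 1386 and 1351 with LIF against 664 and 719.9 without LIF, so the arrays of a group differed far less than the groups did. Its log2 change was -0.98 (1.98-fold lower, SE 0.19, limma adjusted p = 0.12), with -1.06 and -0.91 within the numbers. The probe set carries the suffix s for sequence that other genes may share, so its signal is uncertain by gene. The other one, at 7.4 to 37.9 on the 4 arrays, was near the floor and gave no second reading.

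The 250 bases before the annotated start are shown for members at the ends of the range, with each GC box (GGGCGG or its reverse complement, a site of Sp and Klf family factors) in capitals. They were chosen as the 2 lower and the 2 higher members of smallest p that have an entry in the RefSeq promoter table of GRCm38.p6. Zfp296 lies at chr7:19577037-19577286 and Zfp59 at chr7:27838334-27838583, both on the plus strand, Zfp948 at chr17:21566728-21566977 on the plus strand and Zfp365 at chr10:67912663-67912912 on the minus strand, each run ending at the base before the first exon.
Zfp296: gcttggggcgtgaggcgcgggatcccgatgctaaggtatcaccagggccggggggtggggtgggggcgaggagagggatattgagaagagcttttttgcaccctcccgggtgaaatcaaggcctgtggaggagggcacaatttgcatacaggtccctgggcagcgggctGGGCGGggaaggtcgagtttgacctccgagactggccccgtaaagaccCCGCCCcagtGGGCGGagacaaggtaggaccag
Zfp59: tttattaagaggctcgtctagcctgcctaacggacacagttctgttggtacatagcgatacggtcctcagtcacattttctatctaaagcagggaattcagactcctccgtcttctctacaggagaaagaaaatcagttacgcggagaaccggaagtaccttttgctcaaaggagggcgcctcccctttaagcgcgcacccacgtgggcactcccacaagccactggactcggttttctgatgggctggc
Zfp948: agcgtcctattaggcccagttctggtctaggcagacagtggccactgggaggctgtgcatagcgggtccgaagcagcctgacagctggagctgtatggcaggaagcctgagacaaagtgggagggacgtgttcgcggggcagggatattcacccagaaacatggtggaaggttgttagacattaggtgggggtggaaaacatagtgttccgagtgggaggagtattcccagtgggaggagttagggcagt
Zfp365: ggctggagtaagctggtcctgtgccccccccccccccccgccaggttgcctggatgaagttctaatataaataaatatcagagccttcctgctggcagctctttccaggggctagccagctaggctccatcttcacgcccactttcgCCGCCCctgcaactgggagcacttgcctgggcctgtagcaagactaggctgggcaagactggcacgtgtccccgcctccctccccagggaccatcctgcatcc
Zfp296 held 3 GC boxes and Zfp365 held 1, while those letters were not found in the windows of Zfp59 and Zfp948. The window of Zfp296 had a GC content of 64.0% and that of Zfp59 51.6%. The STAT motif TTCNNNGAA, the letters read by the LIF-activated factor Stat3, was in none of the 4 windows.

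Across the family, 129 members had 164 promoter entries. A GC box was in 51.2% of member windows and in 32.7% of all 32851 windows of the table, which also holds noncoding genes. The median ratio of observed to expected CpG was 0.68 for the members' windows and 0.37 for all windows. TTCNNNGAA, which reads the same on both strands, was in 11.6% of member windows and 7.02% of all windows. TATAAA was found on either strand in 9.15% and 12.4%. ACTACAA, the opening letters of the motif bound by the zinc finger factor Zfp143, was found on either strand in 5.49% and 2.81%. The 17 members with TTCNNNGAA had log2 changes from -0.35 to 0.51 with a median of 0.19, and 0 of these 17 had an unadjusted p of 0.05 or less in the limma fit, against 8.28% of all members and 10.9% of all genes tested, and with so few genes nothing is read from the 0. The 70 members with a GC box had a median change of 0.11 and the 59 with an entry but no GC box had -0.02, values within the range that scaling moves.

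The other members that read lower without LIF were mostly zinc finger genes with no widely known single function. Zfp820 read 792 and 798 with LIF against 568 and 401.5 without LIF (log2 change -0.73, SE 0.25, limma adjusted p = 0.34). Its dimmer probe set read the same way, at 299 and 236 with LIF against 124 and 94.6 without LIF, a change of -1.29. Zfp975 read 1546 and 1851 with LIF against 1330.1 and 939.6 without LIF (-0.60, adjusted p = 0.42), and its other probe set gave -0.89. The probe set that stood for Zfp975 carries the suffix x for possible cross-hybridization. Zfp820 and Zfp975 are cases where a second probe set repeated the direction. Zfp936 read 2131.5 and 2565 with LIF against 1568 and 1738 without LIF (-0.50, adjusted p = 0.40). Zfp979 read 4597 and 5494 with LIF against 3891 and 3448 without LIF (-0.46, adjusted p = 0.42). In each of these 4 genes the groups of arrays did not overlap, and the test was not passed.

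Zfp516, known as an activator of Ucp1 in brown fat, read 766.5 and 1183 with LIF against 639 and 683 without LIF (-0.53, adjusted p = 0.52). Zfp593, a factor of ribosome assembly, read 694 and 1017 with LIF against 628 and 621.5 without LIF (-0.43, adjusted p = 0.59). For both, array 2 with LIF stood above the other 3 arrays. Both probe sets carry the suffix x. The other probe sets of Zfp516 and Zfp593 gave smaller changes, -0.19 and -0.12, with groups that overlapped. Zfp961 and Zfp566 completed the 10 lower members, with changes of -0.34 and -0.33 (adjusted p = 0.56 and 0.60). The mean of its probe sets gave Zfp961 a change of 0.03, since its dim one read 0.40.

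**Figure D2:**
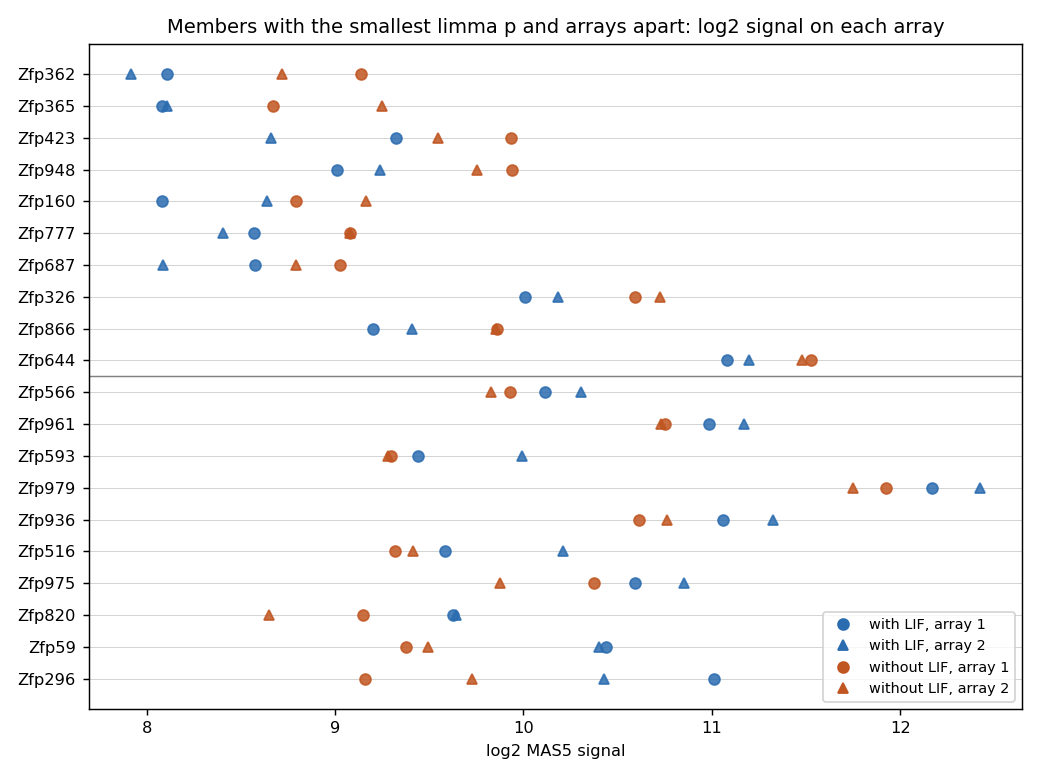
Log2 MAS5 signal (horizontal axis) on each of the 4 arrays for the 10 members higher and the 10 lower without LIF with the smallest limma p and no overlap of the groups, blue with LIF and orange without LIF, circles for arrays numbered 1 and triangles for those numbered 2. The groups are apart in every row by the choice of genes, the widest gap in means is that of Zfp296 (-1.27), and none of the 20 passed the test (adjusted p from 0.12 to 0.60).

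Among members that read higher without LIF, Zfp362 had the largest value. This relative of the factor Zfp384 read 276 and 242 with LIF against 563 and 421 without LIF, each array without LIF above both with LIF. Its mean signal was 259 ± 24.2 with LIF and 492 ± 100.5 without LIF (SD, n = 2), a log2 change of 0.92 (1.89-fold higher, SE 0.27) that did not pass (limma adjusted p = 0.27). The relative Zfp384 itself, which binds matrix and collagen gene promoters, read 1576 and 1095 with LIF against 1610 and 1338 without LIF, and its groups overlapped (0.16, adjusted p = 0.86).

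Zfp365, a protein known to bind Disc1 and to act at centrosomes, read 271 and 276 with LIF against 408 and 608.5 without LIF (log2 change 0.86, SE 0.28, limma adjusted p = 0.33). Array 2 without LIF was well above array 1. Its dimmer probe set read 105 and 80.7 with LIF against 86.4 and 121 without LIF, so that one overlapped. Zfp423, a partner of Ebf1 and of BMP-activated SMAD proteins and a driver of fat cell commitment, read 641 and 404 with LIF against 979.5 and 748 without LIF (0.75, SE 0.29, adjusted p = 0.41). The changes of Zfp423 within the numbers were 0.61 and 0.89. Zfp948 read 516 and 605 with LIF against 982 and 864 without LIF (0.72, SE 0.22, adjusted p = 0.28).

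Zfp326, a subunit of the complex that couples RNA polymerase II to splicing, read 1031 and 1161 with LIF against 1545.5 and 1690.2 without LIF. The step was almost the same within each number, 0.58 and 0.54, for a change of 0.56 (SE 0.19, limma adjusted p = 0.34). Zfp687, which sits with Zmynd8 and Zfp592 in a chromatin complex, read 381 and 272 with LIF against 521 and 443 without LIF (0.58, adjusted p = 0.51), while Zfp592 had groups that overlapped and a change of -0.10. Zfp644, a partner of the histone methyltransferases Ehmt1 and Ehmt2, read 2167 and 2350.1 with LIF against 2954.5 and 2857 without LIF (0.36, adjusted p = 0.50), and all 6 of its probe sets read higher without LIF. Zfp777, Zfp160 and Zfp866 had changes of 0.59, 0.62 and 0.55 (adjusted p = 0.42, 0.50 and 0.39).

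The arrays of each number were also compared with each other, since 18S ribosomal RNA differed by number, at 462 and 5150.4 for arrays 1 and 2 with LIF against 451 and 2990.4 without LIF. Its part in the Zfp values was not tested. Changes within both numbers pointed the same way in 92 members (58.6%), against 65.0% of all genes tested and 67.4% of genes at 8 or more. At least 0.5 the same way within both was reached by 7 members upward (4.46%, background 12.5% of all genes tested and 5.9% at 8 or more) and by 3 downward (1.91%, background 3.97% and 3.79%). The latter were Zfp296, Zfp59 and Zfp267. Zfp267, named here after its values were seen, read 1573.5 and 677 with LIF against 987 and 424 without LIF, so its groups overlapped although its changes within the numbers were -0.67 and -0.68 (-0.67 in all, adjusted p = 0.69). Its other probe set gave -0.61.

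**Figure D3:**
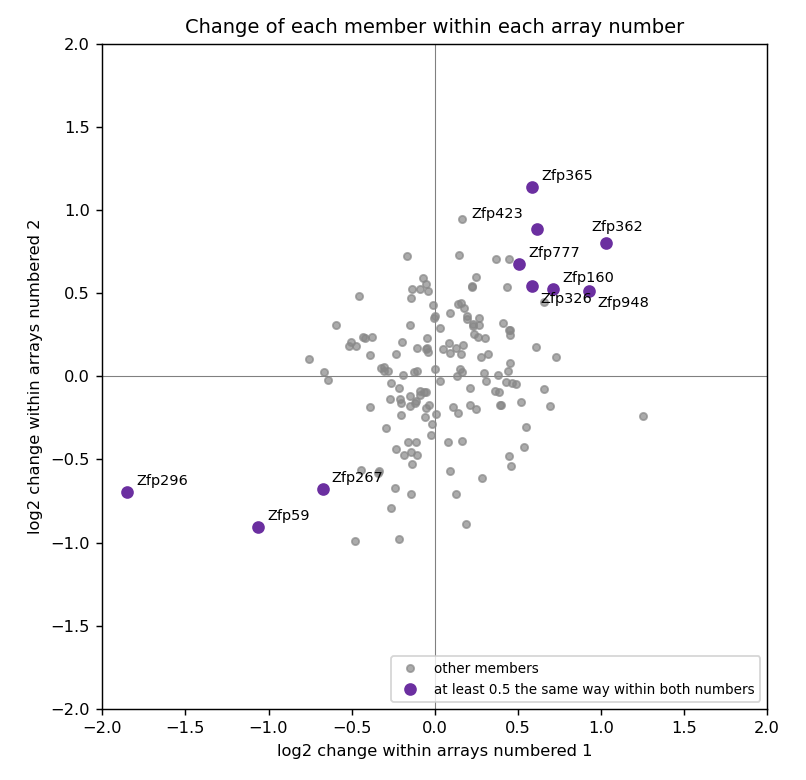
Log2 change without LIF minus with LIF within the arrays numbered 1 (horizontal axis) and within those numbered 2 (vertical axis), 1 point for each of the 157 members. Purple points with names are the 10 members with a change of at least 0.5 the same way within both numbers, 7 upward and 3 downward, and the grey points crowd around 0.

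Signals also differed by array number. The mean difference between the numbers was larger than the change without LIF in 80 of 157 members (51.0%), against 48.4% of all genes tested and 51.0% of genes at 8 or more. In 4 members (2.55%) it was at least 1 on the log2 scale the same way in both groups, against 3.61% of all genes tested and 1.69% of genes at 8 or more. Zfp148, a Krüppel-type factor that binds GC-rich promoters, read 1458 and 189 with LIF against 1113 and 167 without LIF, a difference between numbers of -2.94 with LIF and -2.74 without LIF. Another of its probe sets differed the same way, at 524 and 168 with LIF against 473 and 152 without LIF, while one at 322 and 398 with LIF against 310.5 and 367 without LIF did not. Its change without LIF was -0.29 (SE 1.10, limma adjusted p = 0.95), and 5 further probe sets of Zfp148 gave -0.32 to -0.01. Zfp617 read 1489 and 448 with LIF against 1808 and 486 without LIF, in contrast to its other probe set, where array 2 was the higher one (720.5 and 911 with LIF against 589.7 and 809 without LIF). Zfp941, like Zfp267, was lower on both arrays numbered 2, by 1.17 with LIF and 1.36 without LIF.

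**Figure D4:**
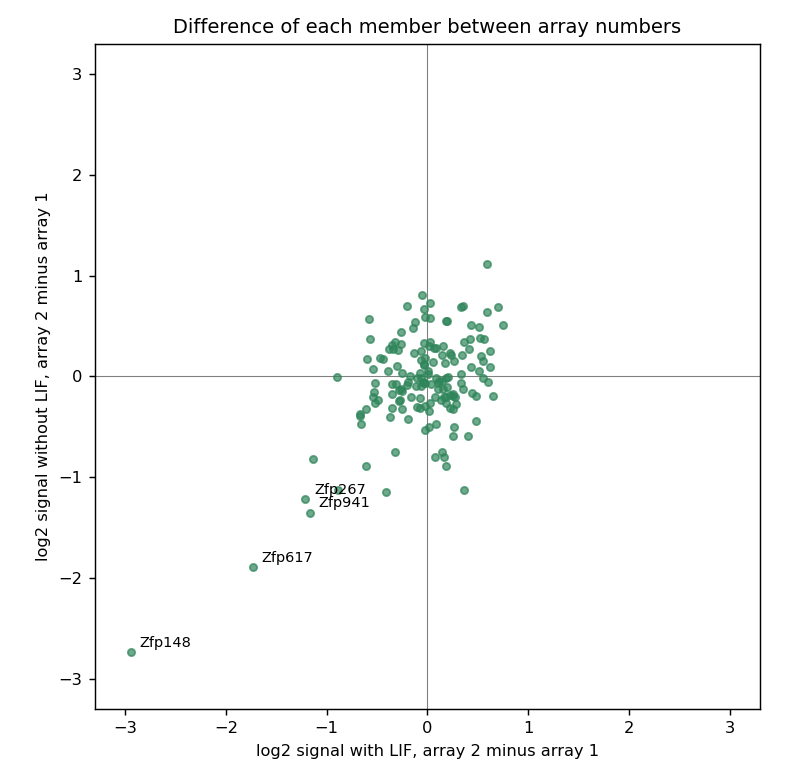
Log2 signal of array 2 minus array 1 with LIF (horizontal axis) and without LIF (vertical axis), 1 point for each of the 157 members. Zfp148, Zfp617, Zfp267 and Zfp941, at the lower left, are the 4 that differed by at least 1 the same way in both groups, and all 4 were lower on the arrays numbered 2.

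Members known as silencers of retroviral and imprinted sequence had changes between -0.33 and 0.27. Zfp809, which brings Trim28 to murine leukemia proviruses, read 1140 and 1118 with LIF against 1106 and 1257 without LIF (log2 change 0.06, limma adjusted p = 0.94). Zfp932, a silencer of endogenous retroviruses, read 1143 and 1018 with LIF against 1103 and 954 without LIF (-0.07, adjusted p = 0.93). Zfp445, which keeps imprints together with Zfp57, read 2674 and 2785 with LIF against 3140 and 3465 without LIF. Here the groups did not overlap and its 3 probe sets read 0.27, 0.22 and 0.19, but the change did not pass (adjusted p = 0.61) and became -0.020 with a common median. Zfp568, the repressor of a placental Igf2 promoter, read 3235 and 3108 with LIF against 1914 and 3345.5 without LIF. Only array 1 without LIF was low for Zfp568 (-0.33, adjusted p = 0.73), and without that array the change was 0.08.

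The partners through which KRAB proteins act were measured as a fixed list of 32 genes, of which 29 were tested. None passed in limma (0, where 0.145% of all genes tested were called). An unadjusted p of 0.05 or less was found for 1, against 10.9% of all genes tested and 11.6% of genes at 8 or more. The list median was 0.04, beside 0.09 for all genes tested and 0.01 for genes at 8 or more. Trim28 read 17981 and 20523 with LIF against 12402 and 18031 without LIF (log2 change -0.36, adjusted p = 0.60), with array 1 without LIF below the rest. Setdb1 read 1992 and 1593 with LIF against 1728 and 1573 without LIF (-0.11, adjusted p = 0.88). The smallest p was that of Pphln1, a subunit of the HUSH silencing complex, at 976 and 631 with LIF against 1578 and 1285 without LIF (0.86, adjusted p = 0.29). Atf7ip, the Setdb1 cofactor, had a change of 0.46, the HP1 protein gene Cbx5 0.46 and the deacetylase gene Hdac2 -0.32 (adjusted p = 0.50, 0.55 and 0.59). Arrays of the groups did not overlap for 6 of the 29 partners upward and 4 downward. The background was 27.3% and 15.2% of all genes tested and 21.5% and 20.2% of genes at 8 or more.

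Members with other known roles in ES cells or chromatin had changes between -0.30 and 0.25. Zfp462, which helps to keep lineage genes in heterochromatin, read 3222 and 4653 with LIF against 3170 and 3644 without LIF (-0.19, limma adjusted p = 0.81). Zfp982, reported to act on pluripotency genes in ES cells, read 8081 and 7049 with LIF against 7502 and 7203 without LIF (-0.04, adjusted p = 0.96), while a dimmer probe set read 577 and 535 with LIF against 1245 and 499 without LIF (0.50). Both of these probe sets carry the suffix x for possible cross-hybridization. Zfp219, a partner of Pou5f1, read 701.5 and 686 with LIF against 610.4 and 584 without LIF (-0.22, adjusted p = 0.77). Zfp217, a CoREST-type corepressor subunit, had a change of -0.14 and Zfp410, the activator of Chd4, 0.08. Zfp131, a BTB-type factor, and Zfp292, a large factor first described in the pituitary, had -0.30 and -0.28. For Zfp292, 5 of 6 probe sets read lower. Zfp335, needed for neural progenitors, had 0.05, Zfp367 0.22 and Zfp110, an interactor of the neurotrophin receptor, 0.25. Of these, Zfp219, Zfp217, Zfp131 and Zfp292 had groups that did not overlap, downward, and Zfp110 upward, and with a common median Zfp110 and Zfp367 read -0.047 and -0.070.

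Members whose zinc fingers serve RNA, ribosomes or protein modification were 13 of a fixed list of 14, with 9 reading lower, 4 higher and 0 passing (1 of 13, Zfp326, had an unadjusted p of 0.05 or less in limma), and a median of -0.09 beside 0.06 for all members. Over all genes tested 0.145% passed and 10.9% had such an unadjusted p, so these counts do not set the list apart. With a common median 12 read lower and 1 higher, where most genes tested read lower too. Zfp207, which binds Bub3 and supports the spindle, read 8244 and 9623 with LIF against 7749 and 9072 without LIF (-0.09, limma adjusted p = 0.90), and its other probe sets of 8 or more read 0.03, 0.04 and 0.10. Zfp622, a maturation factor of the large ribosomal subunit, read 6859.7 and 6581 with LIF against 5728 and 6403 without LIF (-0.15, adjusted p = 0.80). That probe set carries the suffix x. The other probe sets of Zfp622 at 8 or more gave -0.35 and -0.36, with groups that did not overlap. Zfp598, the ubiquitin ligase that senses collided ribosomes, had -0.14 and Zfp451, a SUMO ligase, -0.09. Zfp346, which binds double-stranded RNA, had -0.12, Zfp511 -0.08, and the ubiquitin ligase gene Zfp91 0.10. Zfp106, an RNA-binding protein of motor neurons, read 3610.2 and 3781 with LIF against 3477 and 4234 without LIF (0.05, adjusted p = 0.94). Its other probe sets all read lower, at -0.40 and -0.14 for those of 8 or more. A dimmer one gave -0.53, with groups that did not overlap. Zfp638, an RNA-binding partner of HUSH, had 0.24, which turned to -0.055 with a common median.

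Second readings were available for 81 members, with 152 further probe sets, of which 56 had a mean log2 signal of 8 or more. Of those 56, 43 gave the sign of the probe set that stood for the gene and 13, in 10 genes, gave the opposite sign. These were Zfp24, Zfp91, Zfp106, Zfp207, Zfp451, Zfp511, Zfp574, Zfp592, Zfp617 and Zfp982. The largest opposite reading was the 0.50 of Zfp982. The members' own probe sets were 129 plain ones, 10 with the suffix a for several transcripts of a gene, and 8 and 10 with the suffixes s and x for sequence that other genes may share. Zinc finger genes have many near copies, so signals of probe sets of type s and x are uncertain by gene. The 10 of type x had a median change of -0.09, the plain ones 0.06.

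Zfp genes often lie side by side in the genome, and gene order in the RefSeq table of GRCm38.p6 put 65 members in 24 runs, with at most 2 other protein-coding genes between neighbours. Members of a run had 1 sign in 11 of the 24, namely in 7 of the 15 runs of 2 and in 4 of the 9 runs of 3 or more. Those 4 are given below, and the rest of the 9 held both signs. The share among other neighbouring genes was not measured, so nothing is read from these counts. The largest run, of 9 members, ran both ways: Zfp948 and Zfp677 had changes of 0.72 and 0.49 and Zfp820 had -0.73. A run of 5, Zfp383, Zfp74, Zfp568, Zfp82 and Zfp566, had changes below 0, from -0.35 to -0.05. Of these only Zfp566 read lower within both numbers and had groups of arrays that did not overlap. Zfp383, Zfp74, Zfp568 and Zfp82 changed sign between the numbers, so no shared fall of the run is shown. The run of Zfp991, Zfp982 and Zfp979 read -0.30, -0.04 and -0.46, that of Zfp212, Zfp777 and Zfp746 read 0.14, 0.59 and 0.27, and that of Zfp397, Zfp35 and Zfp24 read 0.38, 0.28 and 0.07. With a common median Zfp212, Zfp746, Zfp35 and Zfp24 turned to -0.15, -0.025, -0.012 and -0.22. Neighbours are often near copies that can share probe signal, and no member of these runs passed the test.

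**Figure D5:**
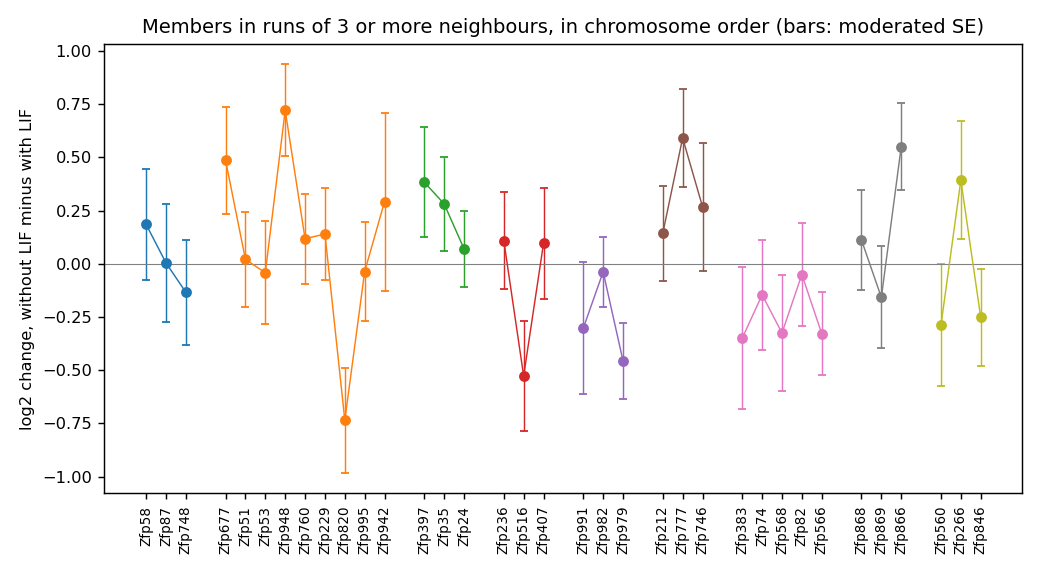
Log2 change without LIF minus with LIF (vertical axis) with its moderated SE for the members in the 9 runs of 3 or more neighbours, in chromosome order from left to right within each joined colour. The run of 9 holds both Zfp948 at 0.72 and Zfp820 at -0.73. The run of 5 from Zfp383 to Zfp566 lies below 0, with groups of arrays that did not overlap only for Zfp566.

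The other 105 members are those that no part of the naming rule picked. Their changes ran from -0.67 to 0.55 with a median of 0.11, and 0 of them had an unadjusted p of 0.05 or less in limma (lowest adjusted p = 0.52). The groups of arrays were apart for 21 upward (20%) and 7 downward (6.67%). The background, from which no genes were taken out, was 27.3% and 15.2% of all genes tested and 21.5% and 20.2% of genes at 8 or more. The naming rule had already taken out the members of smallest p whose groups did not overlap. That choice accounts for the 0 and lowers these shares, so nothing is read from either. A few of the 105 are named here after their values were seen. Zfp646 read 351 and 231 with LIF against 394 and 445 without LIF, a change of 0.55. Zfp512 read 1152 and 962 with LIF against 1277 and 1594 without LIF (0.44). Zfp677, which shares the largest run with Zfp948, read 270.1 and 257 with LIF against 364 and 374 without LIF (0.49). Zfp64 read 1663.5 and 1505 with LIF against 1067 and 1485 without LIF (-0.33), where the gap rested on array 1.

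At the limit of membership the signals chose who is a member, and nothing was tested. Just inside, Zfp87, Zfp688 and Zfp938 had mean log2 signals of 8.01, 8.03 and 8.04, and just outside, Zfp704, Zfp319 and Zfp334 had 7.996, 7.98 and 7.96. Zfp688 read 223 and 337 with LIF against 170 and 368 without LIF, and Zfp87 read 285 and 231 with LIF against 248 and 267 without LIF. Zfp704, an outsider by that margin, read 323 and 308.5 with LIF against 197 and 216.5 without LIF. All 157 members passed the low-signal filter, which their level makes certain.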

How the data were processed

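RNA of 2 arrays with LIF and 2 without LIF was measured on an Affymetrix mouse expression array. The deposited values are signal intensities on a linear scale, from MAS5 per the submitters' processing notes (version and settings: not given in the sources used here). The number of arrays limits the precision. The table held 45101 probe sets, of which 64 were controls, and 34945 had 1 symbol. Log2 signals of the probe set with the highest mean of each gene went into limma 3.58.1 under R 4.3.3 (lmFit, eBayes with a trend, two-sided, Benjamini-Hochberg over 14445 genes above the 30th percentile, a log2 signal of 4.51), which was tested on simulated data. Figures were drawn with matplotlib 3.10.9. The members and lists were chosen with earlier results of these data known. Named members were the 10 higher and 10 lower of smallest p without overlap of the groups, the 28 of 41 genes of a fixed list that are members, the 5 of highest signal, 3 on each side of the limit, and those with an opposite probe set. Alternatives covered filters, a pseudocount, scaling, the variance model, probe set choice, the replicate number, single arrays, an adjusted p of 0.1 and the limit. A planned count of protein domains was not made, since no protein sequences were used here.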

Additional observations from a re-analysis of the deposited data

How the results depend on the processing

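The count of members that passed stayed at 0 without a filter, with a pseudocount, quantile normalization, a common median, a filter at the 50th percentile, either other variance model, the mean of probe sets or plain probe sets, at an adjusted p of 0.1, and with the limit at 7 or 9. Leaving out single arrays gave 0 to 1 members (Zfp296, without array 2 without LIF), and 0 to 0 of the TRIM28 partners. Over all of these limma fits 5 to 16 members had an unadjusted p of 0.05 or less. With the replicate number as a block 8 members passed, 5 higher and 3 lower (5.1%, against 6.75% of all genes tested and 9.03% of genes at 8 or more), 1 partner, Pphln1, and 2 of the 130 tested Zfp genes below 8, Zfp608 and Zfp618. The 8 were Zfp59, Zfp296, Zfp267, Zfp362, Zfp423, Zfp948, Zfp326 and Zfp365 (adjusted p from 0.0046 to 0.049). The differences between the numbers in both groups correlated at 0.29 over all genes tested and 0.54 over members. Over members, arrays of the same number correlated at 0.940 and 0.941 and arrays of the same group at 0.920 and 0.902. Over all genes tested, arrays of the same number correlated at 0.9516 and 0.9529. There the arrays with LIF correlated at 0.9617, the highest of all pairs, and those without LIF at 0.9475. The labels do not say what the numbers share, and with 2 pairs this does not establish pairing. The members' median change was 0.02 to 0.10 with single arrays left out. It was -0.24 with a common median, beside -0.20 for all genes tested and -0.29 for genes at 8 or more. With quantile normalization the members' median was 0.02 and that of genes at 8 or more was 0.0003. With a common median Zfp110 (-0.047), Zfp367 (-0.070), Zfp445 (-0.020) and Zfp638 (-0.055) reversed, as did Zfp961 with the mean of probe sets (0.034) and Zfp568, which ranged from -0.73 to 0.077 with single arrays left out. Of 52 named members 24 lay within 1 SE of 0 and have no direction. The causes were not tested.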

Other observations

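Of the 144 Zfp genes below a mean log2 signal of 8, 130 were tested and 0 passed in limma, with 5 at an unadjusted p of 0.05 or less. Over all genes tested 0.145% passed and 10.9% had such an unadjusted p. Their median log2 change was 0.12 and their SD 0.58. Zfp608, a relative of Zfp609 and one of the genes fixed by name, read 101 and 33.1 with LIF against 330 and 201 without LIF (log2 change 2.16, limma adjusted p = 0.24). Zfp618 read 111 and 85.5 with LIF against 352 and 190.2 without LIF (1.41, adjusted p = 0.26). Zfp467 read 38.8 and 11.9 with LIF against 132 and 77.6 without LIF (2.24, adjusted p = 0.33), with the lowest value under the filter of 22.9. A block for the replicate number let Zfp608 and Zfp618 pass (adjusted p = 0.0059 and 0.022 in limma). Zfp618 and Zfp467 were named after their values were seen. These changes exceed the highest of the members, 0.92, on signals that are closer to the floor.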
